A study of Mus musculus with 6 samples.

Results

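Histone genes were followed through 6 single-colour Agilent arrays of mouse ooplasts and blastocysts. The set held every gene that the array annotation names Hist1h, Hist2h, Hist3h or Hist4h, plus the variants H1foo, H1f0, H1fx, H2afy, H2afy2, H2afz, H2afv, H2afj, H3f3a, H3f3b and Cenpa. It held 47 genes of the 27597 gene names on the array, 36 of them clustered genes with 47 probes and 11 of them variants with 23 probes. Membership was set by gene name, but the set was chosen with earlier results of these data known.

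The study compared RNA of young and climacteric females, that is, of animals near the end of reproductive life, at a pair of stages. All samples carried the strain label B6C3 F1, a cross between inbred lines. Ooplasts had 1 array at each age, young and climacteric, and blastocysts had 2 at each age, which the series' design text calls biological replicates. An ooplast is an oocyte whose nucleus has been taken out. The labels give no age in days or months, no number of pooled cells and no account of how the blastocysts were made.

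Histones are the proteins around which DNA is wrapped. An H2A, H2B, H3 and H4 core forms the nucleosome, and H1 binds the linker between nucleosomes. The clustered genes are copied mainly in S phase, lie side by side in the genome, mostly lack introns, and give mRNAs that end in a stem-loop bound by Slbp, not in a poly(A) tail. Variant genes mostly lie alone, carry poly(A) tails and are used outside S phase as well. Oocytes store histone mRNA for the first cleavages and carry a linker histone of their own, H1foo. A label primed on poly(A) under-samples the stem-loop mRNAs. How the RNA was primed is not given in the sources used here, and the part of priming in the levels of clustered genes was not tested.

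The promoters of 6 genes are shown first, to set side by side genes that moved in opposite directions between the stages. H1foo is the variant that fell most and H2afz the variant that rose most. Hist2h2ac is the clustered gene that rose most, and Hist2h2bb and Hist3h2ba are the H2B genes that fell most. Hist1h2aa is an H2A gene whose probe rose, and it shares its promoter with an H2B gene whose probe did not. Whether the Hist1h2aa probe reads that gene alone was not tested. Each line gives the 250 bases before the start of the gene, 5′ to 3′ on the gene's strand, from RefSeq on GRCm38.p6. Capitals mark the octamer ATTTGCAT, a known element of H2B promoters, the TATA box TATAAA and the CCAAT box CCAAT, each searched on both strands.
H1foo: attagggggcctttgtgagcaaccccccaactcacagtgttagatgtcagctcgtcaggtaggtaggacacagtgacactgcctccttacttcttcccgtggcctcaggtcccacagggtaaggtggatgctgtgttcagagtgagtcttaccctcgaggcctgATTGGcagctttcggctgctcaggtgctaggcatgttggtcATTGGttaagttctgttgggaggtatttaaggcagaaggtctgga
H2afz: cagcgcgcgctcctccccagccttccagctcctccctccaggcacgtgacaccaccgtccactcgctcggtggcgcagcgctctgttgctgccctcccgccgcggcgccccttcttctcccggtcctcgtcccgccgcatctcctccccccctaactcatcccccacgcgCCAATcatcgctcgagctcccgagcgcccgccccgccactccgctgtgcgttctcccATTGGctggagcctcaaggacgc
Hist2h2ac: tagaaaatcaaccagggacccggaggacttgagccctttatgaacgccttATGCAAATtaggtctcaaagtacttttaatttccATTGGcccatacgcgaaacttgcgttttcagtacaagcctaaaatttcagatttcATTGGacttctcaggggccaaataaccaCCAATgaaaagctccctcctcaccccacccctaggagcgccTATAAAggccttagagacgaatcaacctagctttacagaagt
Hist1h2aa: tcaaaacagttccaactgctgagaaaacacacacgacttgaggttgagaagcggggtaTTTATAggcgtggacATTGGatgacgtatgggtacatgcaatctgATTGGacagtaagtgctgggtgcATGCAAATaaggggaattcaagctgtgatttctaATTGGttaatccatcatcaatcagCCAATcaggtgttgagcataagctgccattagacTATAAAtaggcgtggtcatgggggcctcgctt
Hist2h2bb: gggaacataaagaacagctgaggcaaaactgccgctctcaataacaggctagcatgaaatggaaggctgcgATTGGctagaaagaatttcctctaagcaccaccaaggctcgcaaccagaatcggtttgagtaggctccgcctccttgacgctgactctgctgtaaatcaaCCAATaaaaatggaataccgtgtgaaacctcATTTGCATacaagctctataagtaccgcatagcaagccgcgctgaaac
Hist3h2ba: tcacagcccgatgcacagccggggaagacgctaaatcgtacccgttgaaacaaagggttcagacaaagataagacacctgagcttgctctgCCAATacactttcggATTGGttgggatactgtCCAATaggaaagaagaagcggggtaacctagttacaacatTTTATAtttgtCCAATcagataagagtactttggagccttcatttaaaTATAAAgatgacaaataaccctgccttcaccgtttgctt

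The lines lie at chr6:115944681-115944930 (plus strand), chr3:137864237-137864486 (plus strand), chr3:96220881-96221130 (minus strand), chr13:23934187-23934436 (plus strand), chr3:96269450-96269699 (plus strand) and chr11:58948661-58948910 (plus strand). The array annotation places the probes themselves on another build, mm8, with that of H1foo at chr6:115915758-115915817, that of H2afz at chr3:137803794-137803853 and that of Hist3h2ba at chr11:58765641-58765700. Which exon or untranslated part a probe covers was not worked out here. A RefSeq promoter was found for 42 of the 47 genes, with none for Hist1h2bc, Hist1h3a, Hist2h2be, Hist2h4 and Hist3h2bb.

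Levels below are log2 signals relative to the 75th percentile of each array, so 0 is that percentile, and each belongs to 1 probe and is compared between arrays only. A signal counts as well above background by the scanner software's own flag. A gene with several probes is given by its brightest usable one. The share of non-control spots well above background was 42.4% and 42.2% on the ooplast arrays and 49.9% to 57.3% on the blastocyst arrays. Of 10 oocyte markers 9 could be tested and all 9 were lower in blastocysts, while 12 of 12 blastocyst markers were higher. Of the latter, 5 were well above background in neither ooplast array, and Mos, Nlrp5, Zar1 and Zp2 were so in no blastocyst array. These entered the test only through the stage where they were high, so their direction was all but fixed. Among markers measured on every array, Gdf9 stood at 10.89 in both ooplasts against 0.47 to 1.38 in blastocysts. Krt8 stood at 1.28 and 1.17 against 8.74 to 9.02, so for these the stage labels and the RNA went together. The ooplasts and the replicate 1 blastocysts shared slide 1, and the replicate 2 blastocysts were on slide 2. In such bulk samples a fall in the number of cells of a type and a fall in RNA per cell cannot be told apart, and all levels are shares of an array's signal, not amounts per embryo.

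Of the 36 clustered genes, 24 were well above background in each ooplast array and 31 to 33 on the blastocyst arrays. Of the 11 variants, 10 were so on every array. H2afy2, which encodes a second macroH2A, was not well above background on any array, nor were the clustered genes Hist1h2ac, Hist1h2be and Hist2h2aa2.

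Between the stages, 18 histone genes rose from ooplast to blastocyst and 7 fell, of 42 that could be tested (limma over all 6 arrays with age as a term, Benjamini-Hochberg over all 15605 genes, threshold 0.05). Over all genes tested the same threshold was passed upward by 35.5% and downward by 39.0%. The median histone difference was 0.82 on the log2 scale, and the median of all genes was -0.26, which moved between -0.14 and -0.46 with the scaling. Within slide 1 alone 18 rose and 5 fell. Arrays of the 2 stages did not overlap for 28 of the 42 genes, against 79.5% of all genes. Of the 18 rises, 5 were of genes not well above background in either ooplast array, which entered the test through their blastocyst signal and could hardly have been called otherwise. Among the 32 that were well above background on each of the 6 arrays, 12 rose and 6 fell. Under the same filter 3206 of all 10910 genes rose and 4901 fell. Of these 32, the 6 clustered H2A genes gave 4 rises and no fall, the 2 clustered H3 genes 2 rises, the 6 H2B genes no rise and 2 falls, and the 6 H4 genes no rise and 1 fall. All 10 variants tested were among them, with rises for all 4 H2A variants, a fall and no rise among the 3 H3 variants, and 1 rise and 2 falls among the linker variants. Whether the kinds of histone differ from each other was not tested.

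**Figure D1:**
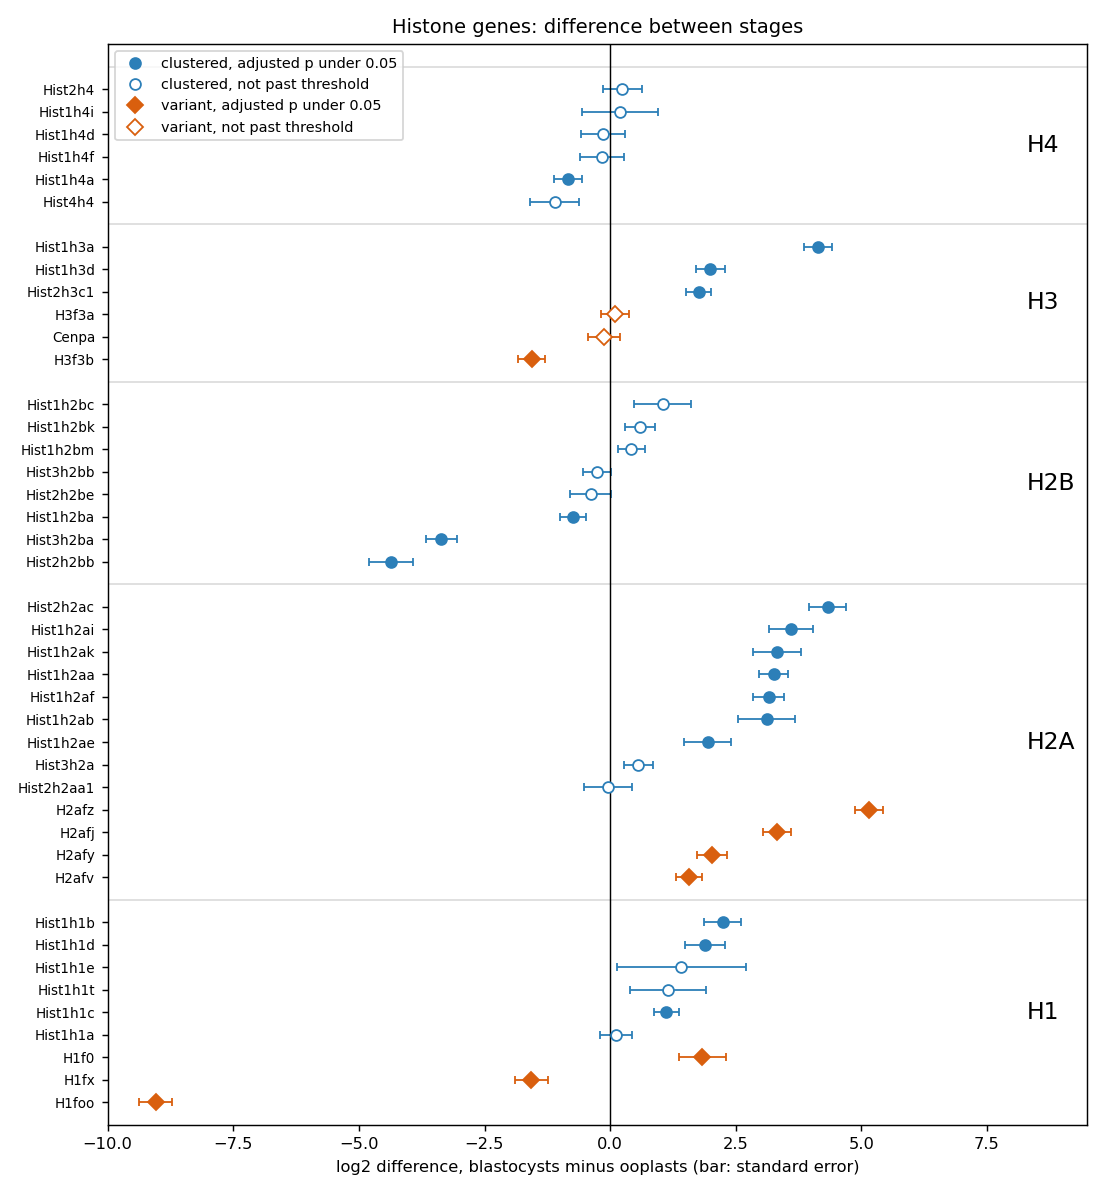
Log2 difference between blastocysts (4 arrays) and ooplasts (2 arrays) of each histone gene tested, with its standard error, grouped by histone; circles are clustered genes, diamonds are variants, and filled symbols passed an adjusted p of 0.05. Genes that were not well above background in ooplasts stand at their fitted value, which is not a measured size. All filled H2A and clustered H3 symbols lie to the right of 0, all filled H2B and H4 symbols to the left, and H1foo stands at -9.05.

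Among linker histones, H1foo fell. It stood at 11.18 in young and 11.23 in climacteric ooplasts. In blastocysts it stood at 2.21 and 2.92 in the young and 1.76 and 1.74 in the climacteric. Both ooplast arrays lay far above all 4 blastocyst arrays, and the oocyte level was close to the same at both ages. The difference was -9.05 (SE 0.34, adjusted p = 9.4e-06 by limma), 529-fold on this scale, and -7.77 with quantile normalization.

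H1f0, the replacement linker histone of cells that leave the cycle, rose by 1.84 on the brightest of its probes (SE 0.46, adjusted p = 0.011 by limma). Its levels were 2.74 and 2.40 in young and climacteric ooplasts, 4.68 and 3.69 in young blastocysts and 5.18 and 4.06 in climacteric blastocysts, with no overlap of the stages. The rise was not on all H1f0 probes. Another was not well above background anywhere. A second one, well above background in both ooplasts and in no blastocyst array, went from a mean of -1.69 to -3.66, and with the mean of all probes the difference turned to -0.77 (adjusted p = 0.0485). Without the climacteric ooplast array the adjusted p was 0.108.

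H1fx, a somatic H1 variant, fell by 1.57 (SE 0.32, adjusted p = 0.00488 by limma). Its levels were 3.14 and 3.28 in young and climacteric ooplasts, against 1.62 and 1.1 in young and 1.58 and 2.26 in climacteric blastocysts. That probe is drawn from an expressed sequence tag with no position in the annotation. The probe of the RefSeq transcript was well above background on 3 arrays only, and with the mean of both probes the difference was -0.33 (adjusted p = 0.594).

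All 4 H2A variants that could be tested rose, against 35.5% of all genes tested. H2afz, which encodes H2A.Z, a variant found at promoters, stood at 2.70 and 2.52 in young and climacteric ooplasts. Its blastocyst levels were 8.03 and 7.79 in the young and 7.35 and 7.90 in the climacteric. The gap between the stages was many times the spread within either, at 5.16 (SE 0.28, adjusted p = 1.82e-05, 35.7-fold). A second probe filed under H2afz, which the annotation puts on another chromosome, was not well above background on any array.

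H2afv, the second H2A.Z gene, was already high in ooplasts. It went from 7.18 and 6.85 in young and climacteric ooplasts to 8.75 and 8.54 in young and 8.32 and 8.73 in climacteric blastocysts. The rise was 1.57 (SE 0.26, adjusted p = 0.00185), 2.97-fold, so both H2A.Z genes rose, by unequal amounts.

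H2afj, an H2A variant with a polyadenylated mRNA, rose by 3.32 (SE 0.28, adjusted p = 8.44e-05 by limma). Its levels were 3.98 and 4.54 in ooplasts, 7.73 and 7.20 in young blastocysts and 7.79 and 7.62 in climacteric blastocysts. A second H2afj probe, well above background on all 6 arrays, did not share the rise and differed by -0.58 (SE 0.25). Both are listed for the RefSeq transcript of H2afj, at chr6:136772856-136772915 and chr6:136774094-136774153 of mm8.

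H2afy, the gene of macroH2A1, rose by 2.03 (SE 0.30, adjusted p = 0.00103 by limma), from 0.48 and 0.56 in ooplasts to 2.80 and 2.10 in young and 2.79 and 2.51 in climacteric blastocysts. A second H2afy probe rose by 1.69 (SE 0.41).

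The H3.3 genes, which encode the H3 that is placed outside S phase, did not follow the H2A variants. H3f3a stood at 8.37 and 8.72 in ooplasts, 8.66 and 8.67 in young blastocysts and 8.37 and 8.89 in climacteric blastocysts. The stages overlapped and the difference was 0.10 (SE 0.28, adjusted p = 0.748 by limma). Both dimmer probes gave 0.52 and 0.61, and quantile normalization gave 0.91 with an adjusted p of 0.03, so the call depends on the scaling.

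H3f3b, the other H3.3 gene, stood at 10 and 10.35 in ooplasts, above its 8.79 and 8.61 in young and 8.38 and 8.69 in climacteric blastocysts. It fell by 1.56 (SE 0.27, adjusted p = 0.00213 by limma). The fall was smaller, -0.61 with an adjusted p of 0.056, after quantile normalization. Its other probes gave -0.70 and -0.89. On the former the stages overlapped, with 8.95 in young and 6.81 in climacteric ooplasts against 6.81 to 7.47 in blastocysts. The lean of that probe thus rested on the young ooplast array. Cenpa, the centromere H3, had levels of 2.42 and 2.30 in ooplasts and 1.93 to 2.77 in blastocysts. It differed by -0.12 (SE 0.33, adjusted p = 0.75), and by -0.83 (adjusted p = 0.0221) when averaged with a second probe that was not well above background anywhere.

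**Figure D2:**
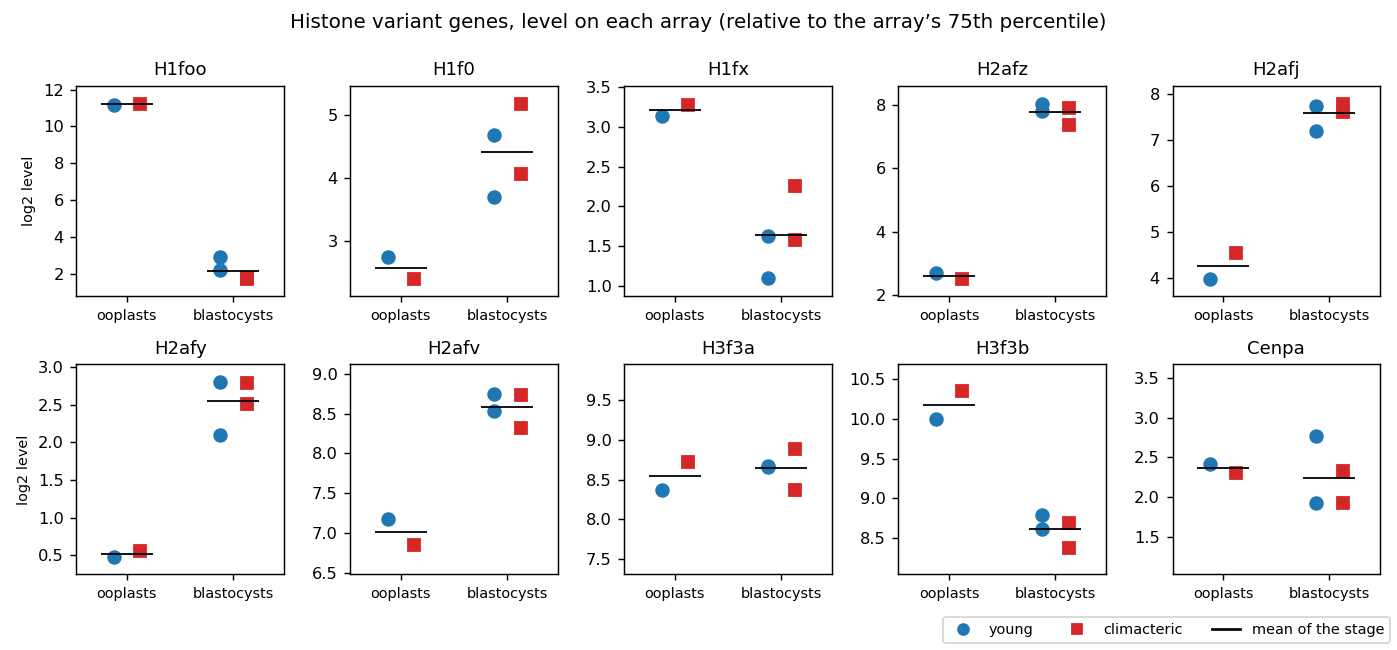
Log2 level of 10 histone variant genes on each of the 6 arrays, relative to the array's 75th percentile; each panel has its own vertical axis, blue circles are young and red squares climacteric samples, and bars are the mean of the 2 ooplast and of the 4 blastocyst arrays. H1foo, H1fx and H3f3b lie higher in ooplasts, H2afz, H2afj, H2afy, H2afv and H1f0 lie higher in blastocysts, and the stages overlap for H3f3a and Cenpa.

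Among clustered genes 13 of 32 tested rose, 4 fell and 15 did not pass the threshold. Of the 13 rises 5 were of genes not well above background in ooplasts, and among the 22 that were measurable on all 6 arrays by that flag 7 rose and 3 fell. Over all 10910 genes so measurable, 3206 rose and 4901 fell. The median difference of the 32 was 0.82, against -0.26 for all genes, and 0.33 against -0.57 over the genes so measurable. Over the 32 it was 0.19 without the climacteric ooplast array and 1.14 without the young one, so the size depended on which ooplast array was used. Of the 22 genes of the Hist1 cluster on chromosome 13, 11 rose and 2 fell. Of the 6 of the Hist2 cluster on chromosome 3, 2 rose and 1 fell, and of the 3 of Hist3 on chromosome 11, 1 fell. Beside these counts stand 35.5% of all genes tested that rose and 39.0% that fell.

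Of the 13 rises, 7 were of H2A genes, 2 of them not well above background in ooplasts. Hist2h2ac rose most, from 1.41 and 2.45 in young and climacteric ooplasts to 6.40 and 5.55 in young and 6.92 and 6.19 in climacteric blastocysts. That is 4.33 (SE 0.37, adjusted p = 9.62e-05 by limma), 20.1-fold. Its second probe, listed for 3 genes, gave 4.17. That probe is placed at chr3:96331233-96331292 of mm8 (plus strand), apart from the main one at chr3:96305950-96306006 (minus strand). It lies near the Hist2h2aa1 probe at chr3:96330984-96331043, which differed by -0.03. Which of these genes the second probe reads was not tested. Hist1h2ak (3.32, SE 0.48) and Hist1h2af (3.15, SE 0.32) rose as well, though a second Hist1h2af probe gave 1.36. Hist1h2ai rose too (adjusted p = 0.000439 by limma), from -2.78 and -1.91 in young and climacteric ooplasts to between 0.34 and 2.33 in blastocysts, but its young ooplast value was not well above background, so the size of the rise is uncertain. No array of one stage overlapped the other for Hist2h2ac, Hist1h2ak, Hist1h2af and Hist1h2ai.

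Hist1h2aa, the germ-cell H2A known as TH2A, stood at 4.07 and 4.60 in ooplasts and at 7.77 and 7.08 in young and 7.86 and 7.65 in climacteric blastocysts. It rose by 3.25 (SE 0.29, adjusted p = 0.000117 by limma), on a probe whose levels were much the same as those of Hist1h2af and H2afj. Hist1h2ab and Hist1h2ae also passed the threshold, but neither was well above background in ooplasts. Hist1h2ab was at least 2.29-fold higher in blastocysts, and for Hist1h2ae the measurable range allowed no such bound. Such bounds set the blastocyst mean against the lowest measurable signal of the ooplast arrays. With normexp background correction neither passed (adjusted p = 0.0556 and 0.372), and without the young ooplast array Hist1h2ae had an adjusted p of 0.0887.

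The H2A genes not called were Hist2h2aa1, at -0.03 (SE 0.48), and Hist3h2a, at 0.56 (SE 0.29). Hist3h2a has 4 probes that disagreed. Those of its RefSeq transcript gave 1.88 and 3.03, but neither was well above background in the climacteric ooplast array, so these sizes are uncertain. The brightest, on the opposite strand, gave the 0.56, and one placed elsewhere on chromosome 11 gave -1.12. The direction of Hist3h2a is thus unsettled.

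Every clustered H3 gene tested rose, against 35.5% of all genes tested. Hist1h3d went from 4.50 and 4.20 in ooplasts to 6.19 and 6.62 in young and 6.02 and 6.54 in climacteric blastocysts, a difference of 1.99 (SE 0.29, adjusted p = 0.000964 by limma). Hist2h3c1 went from 5.56 and 5.36 to 7.07 and 7.38 in young and 7.07 and 7.36 in climacteric blastocysts, 1.76 higher (SE 0.26, adjusted p = 0.001). The replicates lay so close that the stages were well apart for both. Hist1h3a was not well above background in ooplasts and was at least 3.95-fold higher in blastocysts, where it measured -0.20 and 0.01 in the young and -0.64 and -0.23 in the climacteric.

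Of 6 clustered linker genes, 3 rose, against 35.5% of all genes tested. Hist1h1c, the gene of the somatic H1.2 protein, rose by 1.12 with age taken into account (SE 0.25, adjusted p = 0.00729), with levels of 0.34 and -0.98 in young and climacteric ooplasts, 1.46 and 1.15 in young blastocysts and 0.21 and 0.37 in climacteric ones. The stages overlapped when the ages were pooled, and without the climacteric ooplast array the adjusted p was 0.0653. Hist1h1b (H1.5) was at least 1.24-fold and Hist1h1d (H1.3) at least 1.44-fold higher in blastocysts, neither being well above background in ooplasts. Hist1h1d was named after its value was seen. With normexp the difference of Hist1h1b was 0.09 (adjusted p = 0.743). The testis linker gene Hist1h1t was well above background in blastocysts only and did not pass (adjusted p = 0.203). Hist1h1e did not pass (adjusted p = 0.348), with 1 of its ooplast arrays not well above background.

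Of 8 H2B genes tested, 3 fell, none rose and 5 did not pass the threshold. Over all genes tested 39.0% fell and 35.5% rose. Hist3h2ba stood at 8.32 in young and 7.33 in climacteric ooplasts. It stood at 4.87 and 5.56 in young and 3.69 and 3.75 in climacteric blastocysts. It thus fell between the stages at both ages, by 3.36 (SE 0.30, adjusted p = 0.000118 by limma), 10.3-fold.

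Hist2h2bb fell from 1.48 and 0.46 in ooplasts to -4.06 and -2.91 in young and -3.42 and -3.16 in climacteric blastocysts, where 3 of 4 arrays were well above background. The difference was -4.36 (SE 0.44, adjusted p = 0.000195), 20.5-fold. Hist1h2bc, Hist1h2bk and Hist1h2bm lay higher in blastocysts, by 1.05, 0.60 and 0.42 without overlap of the stages, but did not pass (adjusted p = 0.138, 0.113 and 0.202 by limma).

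Hist1h2ba, the germ-cell H2B known as TH2B, stood at 0.74 and 1.83 in ooplasts, 0.36 and 0.19 in young and 0.74 and 0.93 in climacteric blastocysts. The difference of -0.73 (SE 0.26) was just past the threshold (adjusted p = 0.0409 by limma). It was not past it when the young ooplast, the climacteric ooplast, the climacteric blastocyst replicate 1, the young blastocyst replicate 2 or the climacteric blastocyst replicate 2 array was left out, with adjusted p from 0.0513 to 0.289, nor with the slide as a block (0.0911).

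Of 6 H4 genes tested, 1 fell and 5 did not pass the threshold, where 39.0% of all genes tested fell and 35.5% rose. Hist1h4d, Hist1h4f, Hist1h4i and Hist2h4 differed by -0.14, -0.16, 0.19 and 0.24 with standard errors of 0.40 to 0.76. Hist4h4 differed by -1.10 (SE 0.49, adjusted p = 0.082 by limma). Hist1h4a passed, at -0.83 (SE 0.28, adjusted p = 0.0321), from 1.86 and 2.23 in ooplasts to 1.33 and 0.72 in young and 1.47 and 1.33 in climacteric blastocysts. That call was lost with the slide as a block (0.108), with normexp (0.096) and without any single array other than the young blastocyst replicate 1, with adjusted p from 0.0577 to 0.132.

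**Figure D3:**
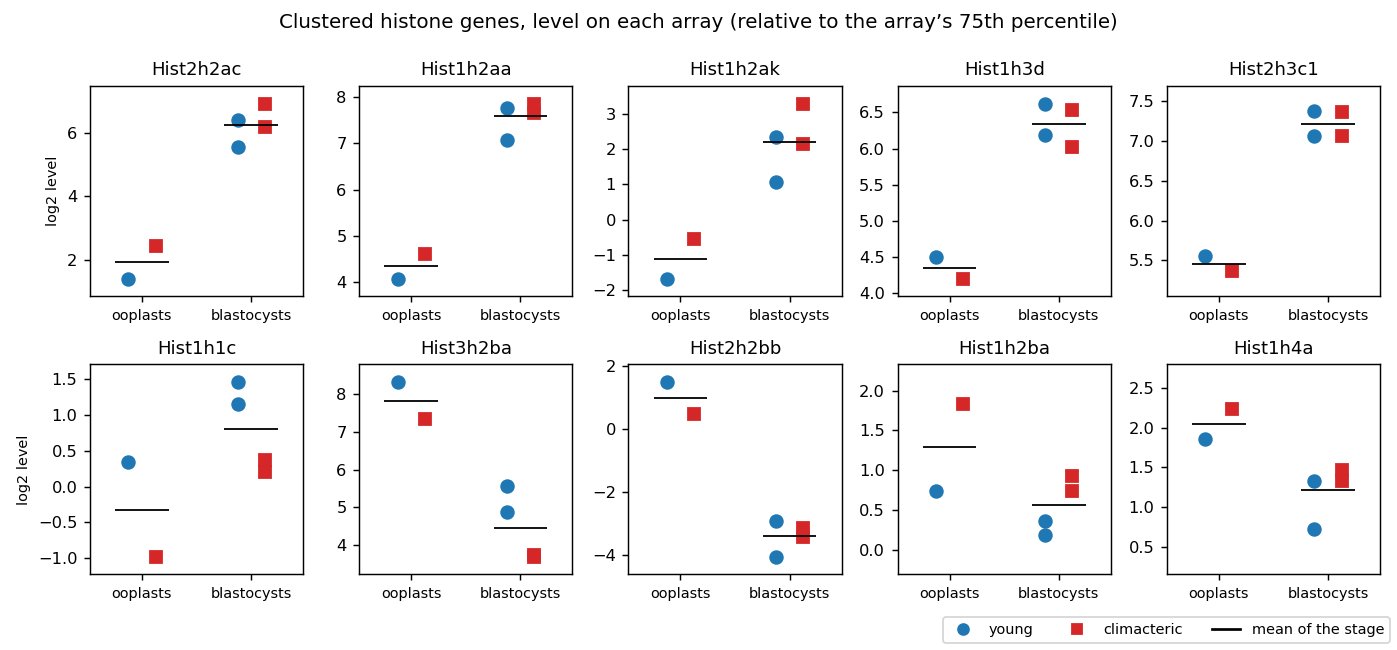
Log2 level of 10 clustered histone genes on each of the 6 arrays, relative to the array's 75th percentile; each panel has its own vertical axis, blue circles are young and red squares climacteric samples, and bars are the mean of the 2 ooplast and of the 4 blastocyst arrays. The H2A and H3 genes lie higher in blastocysts, Hist3h2ba and Hist2h2bb lie higher in ooplasts, the stages overlap for Hist1h1c and Hist1h2ba, and Hist3h2ba and Hist1h1c are lower in climacteric than in young samples at both stages.

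Copies of a clustered gene can share a probe. For 11 of the 32 clustered genes tested, the annotation of the probe lists transcripts of more than 1 gene, and these values belong to the group of copies, not to the gene whose name they carry. Of these 11 genes 4 rose and 1 fell. Of the other 21, 9 rose and 3 fell, where 35.5% of all genes tested rose and 39.0% fell. Hist1h2ai, Hist1h2af, Hist1h3d, Hist2h3c1 and Hist1h4a are among the shared ones, and the stage differences of Hist2h2ac, Hist1h2aa, Hist2h2bb and Hist3h2ba come from probes listed for 1 gene or none. A listing does not show that a probe reads 1 gene only. The probes of Hist1h2aa, Hist1h2af and H2afj gave much the same levels on every array. In ooplasts they stood at 4.07 and 4.60, 4.08 and 4.84, and 3.98 and 4.54. In blastocysts they lay at 7.08 to 7.86, 7.06 to 7.85 and 7.20 to 7.79. Levels of Hist1h4d and Hist1h4f ran in parallel over the arrays, as did those of Hist1h2ai and Hist1h2ak. Whether such probes read a common transcript was not tested, so whether their differences are separate ones is not known.

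Some H2A and H2B genes lie next to each other and are read outward. Hist1h2aa and Hist1h2ba share a stretch, and 220 bases are common to their 300-base RefSeq promoters, so the Hist1h2aa line above holds most of the Hist1h2ba promoter in reverse. Their differences were 3.25 and -0.73. The Hist1h2aa probe gave much the same levels as those of Hist1h2af and H2afj, so whether its rise belongs to Hist1h2aa is not known. The call of Hist1h2ba was lost when most single arrays were left out. Hist2h2ac lies beside Hist2h2be, an H2B gene, with 4.33 against -0.39 (SE 0.41), the latter not well above background in ooplasts. Hist3h2a, whose direction is unsettled, and Hist3h2bb (-0.26, SE 0.28) both failed to pass. The current symbol of Hist3h2bb is H2bu1-ps, a pseudogene name, and its probe is listed for 2 genes. The difference between partners was not tested.

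The octamer was in the promoters of 11 of 31 clustered genes and of 1 of 11 variants, H3f3b. It was in 1.74% of all 32851 promoters of the same length. It stood in 6 of 11 clustered H2A and 5 of 7 H2B promoters and in none of the H1, H3 and H4 ones. The TATA box was in 20 of 31 clustered and 1 of 11 variant promoters, against 13.6% of all, and the CCAAT box in 28 of 31 and 8 of 11, against 37.4% of all. The octamer was found among genes of both directions. Of the clustered genes that rose, 4 of 12 with a promoter held the octamer, and of those that fell, 2 of 4 did. Hist2h2ac, which rose, has it at position -200 from the start and Hist2h2bb, which fell, at -48. A match is a run of letters and shows no binding.

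With age, no histone gene of 43 passed an adjusted p of 0.05 in blastocysts (limma, 2 climacteric against 2 young arrays), and nor did any of the 15971 genes, a share called of 0.0%. At an unadjusted p of 0.05 the count was 4 histone genes, 2 higher and 2 lower in climacteric blastocysts, and 864 genes or 5.41% of all. The median age difference of the histone genes was 0.32 on the log2 scale, against 0.01 for all genes. It was 0.36 for the 33 clustered genes and -0.08 for the 10 variants. The clustered median ranged from 0.21 to 0.63 as each blastocyst array was left out. Both climacteric arrays lay above both young ones for 7 of the 43, against 16.2% of all genes, and below for 4, against 13.8%.

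The 2 lower genes were Hist3h2ba and Hist1h1c. Hist3h2ba, whose values are given above, was -1.49 in climacteric blastocysts (SE 0.35, unadjusted p = 0.00702, adjusted p = 0.576 by limma), with -1.18 on slide 1 and -1.81 on slide 2. Hist1h1c was -1.01 (SE 0.29, unadjusted p = 0.017, adjusted p = 0.725 by limma), with -1.24 and -0.78 on the slides.

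The 2 higher genes were Hist1h1e and Hist4h4. Hist1h1e, the H1.4 gene, measured -0.49 and -1.82 in young and 0.57 and 0.01 in climacteric blastocysts, 1.44 apart (SE 0.52, unadjusted p = 0.0382, adjusted p = 0.879 by limma). That difference was 0.78 without young blastocyst replicate 2, 2.11 without young blastocyst replicate 1 and 0.91 with the mean of all probes. Hist4h4 measured -2.33 and -2.15 in young and -1.48 and -1.56 in climacteric blastocysts, 0.72 apart (SE 0.28, unadjusted p = 0.0478, adjusted p = 0.914), or 0.37 with normexp and 1.30 with the mean of all probes. Among the variants, H1foo lay lower in both climacteric blastocyst arrays (-0.81, SE 0.35, unadjusted p = 0.0658), and the other 9 overlapped between the ages.

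In ooplasts there was 1 array of each age, so differences carry no replicate check. Of 33 histone genes well above background on both, 3 were at least 2-fold higher and 4 at least 2-fold lower in the climacteric array, against 7.36% and 9.86% of all 12291 genes. All 7 were clustered genes. None of the 10 variants reached 2-fold on its main probe, although a second H3f3b probe went from 8.95 in young to 6.81 in climacteric ooplasts while its main probe was 0.35 higher. A second H2afy probe was 1.07 lower, with the main one 0.08 higher.

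Hist1h4i was lowest in the climacteric against the young ooplast array, at 0.30 against 3.67, 10.4-fold. Hist4h4 was -1.49 against -0.07, Hist1h1c -0.98 against 0.34 and Hist2h2bb 0.46 against 1.48. On the other side Hist1h2ak stood at -0.55 against -1.67, Hist1h2ba at 1.83 against 0.74 and Hist2h2ac at 2.45 against 1.41, with Hist1h2af next at 4.84 against 4.08. Hist1h1e was well above background in the young ooplast array only, at 0.46, and read -4.16 in the climacteric one. With normexp correction 2 histone genes in place of 7 reached 2-fold. Of 19 macrophage markers 6 were well above background in the young and 12 in the climacteric ooplast array, with summed log2 levels of 2.29 and 5.62. Of 16 cumulus and granulosa markers 9 were so in each, with summed levels of 8.79 and 6.62. Itgam, Mrc1, C1qa, Ptprc, Laptm5, Lyz1 and Fcgr3 among the former and Fshr, Star, Cyp11a1, Has2, Cd44 and Pappa among the latter were not well above background in either ooplast array. Fcer1g, a macrophage marker, stood at 0.28 in the young and 3.84 in the climacteric one. The granulosa markers Cyp19a1 (6.30 and 6.22) and Hsd3b1 (2.81 and 3.05) were high in both, and Inha stood at 8.44 in the young and 2.80 in the climacteric array. Their part in the histone differences was not tested.

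Of 33 histone genes measured in both comparisons, 5 were lower with age in ooplasts and on both slides of blastocysts, namely Hist1h1a, Hist1h1c, Hist1h3d, Hist1h4i and Hist3h2ba. Another 7 were higher in all 3, namely H2afj, Hist1h2aa, Hist1h2ak, Hist1h2ba, Hist1h2bm, Hist1h4a and Hist2h2ac. Over all 11460 genes measured in both, 14.7% were lower and 18.2% higher in all 3. A test of whether the age difference itself changed with the stage called no histone gene of 43 (limma interaction term, adjusted p of 0.05), against 0.821% of all genes. The lowest adjusted p was that of Hist1h1e, 0.0917, whose climacteric ooplast value was not well above background, so the size of its difference is not given.

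**Figure D4:**
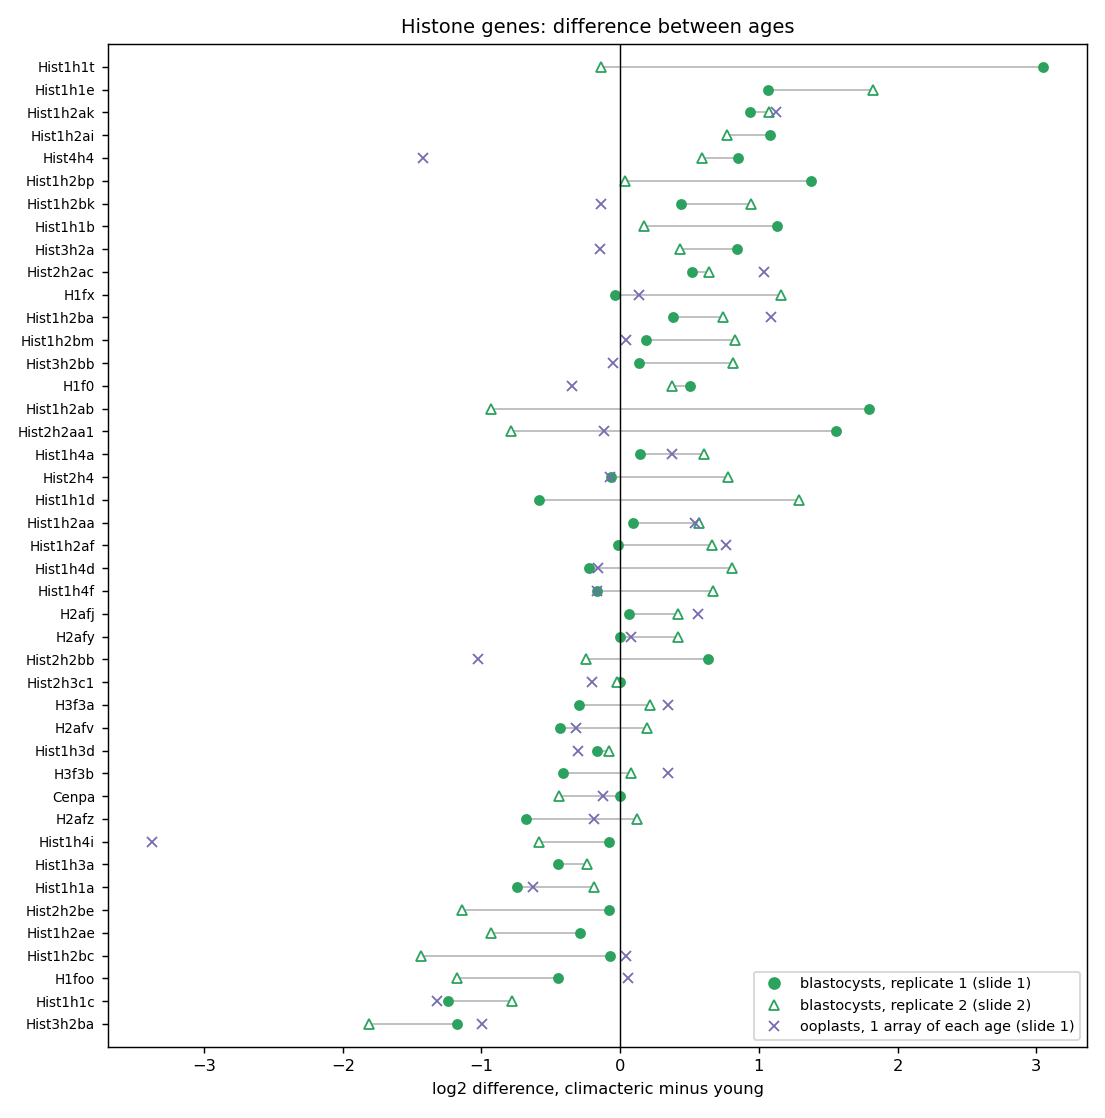
Log2 difference between climacteric and young samples for 43 histone genes, in blastocysts on slide 1 (filled circles) and slide 2 (open triangles) and in ooplasts (crosses, 1 array of each age, only genes well above background on both); genes are ordered by the blastocyst mean. Hist3h2ba and Hist1h1c lie left of 0 at all 3 points, Hist1h2ak lies right of 0 at all 3, and Hist1h4i stands apart at -3.37 in ooplasts.

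Of 23 genes tested that make and handle histone mRNA, 11 rose and 7 fell between the stages, with a median of 1.02. Over all genes 35.5% rose and 39.0% fell, and the counts of this and the next lists are given as description only. Slbp, the protein that binds the stem-loop, went from 9.30 and 8.98 in ooplasts to 4.63 and 4.15 in young and 4.57 and 3.94 in climacteric blastocysts, a fall of 4.82 (SE 0.30, adjusted p = 2.93e-05 by limma). Casp8ap2, which encodes the processing factor FLASH, fell by 2.85, the decay helicase Upf1 by 2.92 and Zc3h8 by 4.72. Rises were seen for Coil, the scaffold of Cajal bodies, at 6.49, for Eri1, an exonuclease that trims histone mRNA, at 4.87, for Snupn, an importer of small nuclear RNPs, at 3.15 and for Ncbp1, a cap-binding subunit, at least 13.9-fold. Npat, the activator of clustered histone genes, was not well above background on all arrays of either stage and was not tested.

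Of 43 chaperones and deposition factors 16 rose and 16 fell, shares near those over all genes, with a median of 0.30. Npm2, the oocyte nucleoplasmin, fell by 7.27 (SE 0.57, adjusted p = 6.62e-05 by limma), from 6.37 and 6.70 in ooplasts to -1.80 and 0.22 in young and -0.36 and -0.98 in climacteric blastocysts. Spty2d1 (-5.09) and the HIRA-complex genes Cabin1 (-4.53) and Ubn2 (-4.42) fell as well, while Hira itself differed by -0.25 (SE 0.33). Asf1a and Asf1b, which hand H3 and H4 to other chaperones, fell by 1.12 and 2.42. Chaf1b, a subunit of the S-phase assembly factor CAF-1, rose by 4.21 (SE 0.29, adjusted p = 4.07e-05). Set (4.01) and Nasp (0.77, adjusted p = 0.0313), which carries H3 and H4, rose, and Mis18a, needed to place Cenpa, and Znhit1, a subunit of the H2A.Z loader SRCAP, were at least 31.1-fold and 19.9-fold higher. The Cenpa chaperone Hjurp differed by -0.56 (SE 0.45). Chaf1a, the large CAF-1 subunit, was at 4.03 in young and -1.72 in climacteric ooplasts and did not pass between the stages (adjusted p = 0.383).

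Of 42 S-phase and replication genes 17 rose and 10 fell, with a median of -0.17. Rises included those of Tyms, which makes thymidylate, at 6.44 and of the clamp loader Rfc2 at 5.82. The primase gene Prim1 and the polymerase gene Pole rose too (adjusted p = 0.000147 and 4.51e-05 by limma), but neither was well above background in climacteric ooplasts, so their size is not given. Falls included those of E2f1 (-4.65) and Orc6 (-2.75), and of Ccne2 and Cdc45, which were well above background on 3 and 2 of the 4 blastocyst arrays. Among histone genes outside the naming rule, H2ax, the H2A form phosphorylated at DNA breaks, rose by 2.34 (SE 0.36, adjusted p = 0.00134 by limma), and H1f7, a testis linker histone, fell by 1.21 (SE 0.38, adjusted p = 0.0272). No gene of these 4 lists passed an adjusted p of 0.05 with age in blastocysts by limma, where no gene at all did.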

How the data were processed

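Signals came from 6 single-colour scanner files. The deposited intensity per spot is the background-subtracted processed signal of Agilent Feature Extraction 9.5, per the submitters' processing notes and the file headers. The authors' deposited log2 table matched quantile normalization of the same spots within 0.00075 and served as an alternative.

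Each intensity was put on a log2 scale and the 75th percentile of its array, taken over the 43379 spots that are no controls, was subtracted. Spots of one probe were averaged, and the brightest probe kept stood for a gene. A gene was tested if 1 or more of the groups compared had it above background throughout, with limma 3.58.1 in R 4.3.3, with Benjamini-Hochberg adjustment and a threshold of 0.05. In ooplasts, genes above background on both arrays were compared without a test. Of 41174 probes, 8075 kept the file's name and the others were named through RefSeq. On simulated data with known changes, 74% of 4-fold and 2% of 2-fold stage differences among 15605 genes were recovered, and 56% and 4% of age differences among 15971. Few genes were changed in the simulation, whereas 74.5% were called between the real stages, so its stage shares do not carry over to the data.

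Members, gene lists, markers and motifs were chosen with earlier results of these data known. The text names all variants, clustered genes with the largest stage differences (8 a direction, and 4 with a bound only), up to 4 a direction by age, Hist1h1t, Hist1h2aa and Hist1h2ba, up to 4 a direction of each list with a set of chaperone and processing genes, and probes of a gene that differ over 2-fold. Other histone genes are named to account for the whole set. The blastocyst replicate numbers coincide with the slides. Deviations of same-numbered arrays correlated at 0.17 over 15971 genes, and with 2 pairs this settles no pairing. Other scalings, filters, probe rules, the slide as a block and leaving out each array were the alternatives.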

Additional observations from a re-analysis of the deposited data

Results flagged for a closer look

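Among the 4 blastocyst arrays, 3 of 30 histone genes looked at had 1 array far from the other three, by a test that chance passes in about 1 group of 20. Hist1h1b was lowest in young blastocyst replicate 1, at -2.84 against -1.71 to -1.51. Hist1h2af was lowest in young blastocyst replicate 2, at 7.06 against 7.71 to 7.85. Hist1h1t, the testis linker histone, was highest in climacteric blastocyst replicate 1, at 0.26 against -2.79 to -2.30. On that array 13 of 19 macrophage markers were well above background and their summed log2 level was 5.44, against 2.04 to 2.17 on the other blastocyst arrays. Its part in the Hist1h1t value was not tested. No difference between the stages in the effect of age passed the threshold for a histone gene.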

How the results depend on the processing

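The count of histone genes past the threshold between the stages was 25, and between 18 and 29 under the alternatives run. The 7 falls became 11 with no filter. The median difference of clustered genes, 0.82, was 0.34 with normexp, 0.49 with no filter, 0.33 over genes above background on all arrays and 0.45 with the mean of all probes, and ranged from 0.19 to 1.14 as each array was left out. Of 27 genes followed one by one, 1 reversed, H1f0, at -0.77 with the mean of all probes. Over their alternatives 370 values kept their call, 24 lost it and 3 gained it. With the replicate block, that is the slide, 18 genes rose and 5 fell, the calls of Hist1h2ba (-0.74) and Hist1h4a (-0.64) were lost, and no histone gene was called by age. Leaving out 1 ooplast array assumes that the other varies like the blastocysts. No histone gene was called by age in blastocysts, or by age and stage together, under any alternative run. The 7 genes with 2-fold ooplast differences became 2 with normexp. The alternative filter on all arrays is the main one for ooplasts. In the simulation 2-fold differences were mostly missed. Between the stages some smaller ones were called in the data, among them those of Hist1h2ba, Hist1h4a and Nasp. Signals near background set bounds only.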
